A study of Homo sapiens with 4 samples.

Results

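The mitochondrial genome transcripts are the RNAs copied from the small circular DNA inside mitochondria. They were taken as every gene that the count files place on chromosome MT, which gave 37 of 60675 annotated genes. Of these, 13 encode proteins of the respiratory chain and ATP synthase, 2 encode the ribosomal RNAs (rRNAs) of the mitochondrial ribosome and 22 encode transfer RNAs (tRNAs). LNCaP, a human line that was started from a lymph node metastasis of prostate cancer and responds to androgen, was profiled by RNA sequencing to ask how the KDM5 family inhibitor CPI-455 alters androgen-dependent expression. KDM5 enzymes remove methyl groups from lysine 4 of histone H3. All 4 libraries came from cells given 1 nM R1881, a synthetic androgen, for 72 h in phenol red-free medium with hormone-depleted serum. In 2 libraries R1881 was combined with vehicle (DMSO), and in the other 2 with 50 µM CPI-455. No library without R1881 was used here. The libraries of a group are biological replicates of 1 cell line, and what separated them (passage, day or dish) was not given in the sources used here.

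The 4 libraries held 19623553 and 20690819 counted fragments with vehicle and 9522920 and 5401588 under CPI-455, so the inhibitor libraries were the shallower ones. Of 17600 genes tested by edgeR's quasi-likelihood test, 21.3% were called lower and 21.0% higher with CPI-455 at a false discovery rate (FDR) under 0.05 with 2-fold as the smallest change, and the median log2 fold change (vehicle over CPI-455) was 0.04. All 9 luminal prostate markers examined were tested and 6 were lower with CPI-455. KLK2, KRT18 and TMPRSS2 were not called, and KLK2 went the other way (log2 fold change -0.56, edgeR FDR = 0.0083). The summed level of the 9 was 880 to 955 CPM (counts per 1000000, scaled to library depth) with vehicle. With the inhibitor it was 383 to 437 CPM. KLK3 alone averaged 380 CPM with vehicle and 121 CPM with the inhibitor. The basal marker KRT5 had no count in any library. The immune markers PTPRC and CD3E, the endothelial marker PECAM1 and the basal factor TP63 had at most 8 counts in any library. The stromal markers ACTA2 (249 and 382 counts against 54 and 53) and COL1A1 (105 and 88 against 90 and 39) were detected, and COL1A1 was called higher with CPI-455 (4.49 ± 0.664 against 8.91 ± 1.68 CPM, edgeR FDR = 0.0195). The summed level of all 7 markers of other cell types reached 21.7 CPM in a vehicle library and 19.4 CPM in an inhibitor library, and their part in the MT values was not tested.

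Mitochondrial DNA is transcribed from both strands into long precursors that start in a non-coding control region. Most protein and rRNA genes are flanked by tRNA genes. RNase P and ELAC2 cut at the tRNA ends and so release the RNAs between them. The messenger RNAs then receive short poly(A) tails from MTPAP, and the LRPPRC and SLIRP complex holds them stable. In the GRCh38 build the MT chromosome is 16569 bases long, and 15358 of them lie in a gene. None of the 37 genes has an intron, so all counted positions are exonic. There are 28 genes on the plus strand and 9 on the minus strand, the latter being MT-ND6 and 8 tRNA genes. Neighbouring genes touch or overlap in 25 of 36 pairs. Fragments that fell on more than one gene alike were not counted, so fragments that span a boundary are largely missing from these counts. A fragment of an uncut precursor that lies inside a single gene was counted for that gene.

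The boundary between MT-RNR2 and MT-ND1 is shown because the direction of change turns across it. It is the plus strand of GRCh38 chromosome MT from 3200 to 3336, with MT-TL1, the tRNA for leucine (3230 to 3304), in capitals between the end of the large rRNA gene and the start of the first NADH dehydrogenase gene.
MT-RNR2 to MT-ND1: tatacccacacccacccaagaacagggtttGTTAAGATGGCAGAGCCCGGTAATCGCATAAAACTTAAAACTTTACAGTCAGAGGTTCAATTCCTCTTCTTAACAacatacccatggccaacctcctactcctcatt
The boundary between the rRNA genes is shown for comparison, on the plus strand from 1572 to 1700. MT-TV, the tRNA for valine (1602 to 1670), is in capitals and stands between the end of MT-RNR1 and the start of MT-RNR2.
MT-RNR1 to MT-RNR2: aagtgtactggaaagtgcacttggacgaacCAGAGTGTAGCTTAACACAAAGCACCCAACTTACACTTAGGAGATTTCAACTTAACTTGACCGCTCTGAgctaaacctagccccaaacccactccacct
Of the tRNA genes, MT-TM (methionine) had the most counts with vehicle and MT-TP (proline) was the only one with more than 1 count in each CPI-455 library. MT-TM is given in capitals within the plus strand from 4382 to 4489, and MT-TP (15956 to 16023) is given whole, read 5′ to 3′ on the minus strand.
MT-TM: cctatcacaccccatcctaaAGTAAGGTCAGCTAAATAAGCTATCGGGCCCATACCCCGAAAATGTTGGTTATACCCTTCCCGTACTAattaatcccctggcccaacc
MT-TP: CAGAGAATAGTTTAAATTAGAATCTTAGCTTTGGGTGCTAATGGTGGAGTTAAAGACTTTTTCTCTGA
The window from 8507 to 8592 shows the 46 bases that MT-ATP8 and MT-ATP6 share, in capitals. A fragment lying on both genes alike was not counted for either.
MT-ATP8 and MT-ATP6: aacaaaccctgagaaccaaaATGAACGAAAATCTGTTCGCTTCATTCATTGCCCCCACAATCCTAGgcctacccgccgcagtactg

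The mitochondrial share of counted RNA was lower with CPI-455, and its make-up changed from mainly protein genes to mainly MT-RNR2. MT genes took 2.43% and 1.91% of counted fragments with vehicle and 1.24% and 0.967% under CPI-455, a 1.96-fold lower mean share. The groups did not overlap. An exact two-sided permutation test over the 4 libraries gave p = 0.333, the smallest value it can give with 2 libraries against 2. The protein genes took 1.84% (95% Wilson interval 1.83% to 1.84%) and 1.41% (1.40% to 1.41%) of all counts with vehicle. With CPI-455 they took 0.0948% (0.0929% to 0.0968%) and 0.0791% (0.0768% to 0.0816%), an 18.7-fold lower mean. The rRNA genes went the other way, from 0.581% and 0.501% under vehicle to 1.15% and 0.887% with the inhibitor. These intervals cover counting error only. For the summed MT share, fewer mitochondrial genomes per cell and less RNA from each genome cannot be told apart in bulk RNA. The cause of the opposite changes in the protein and rRNA genes was not tested.

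Within the mitochondrial counts alone, the protein genes made up 74.7% ± 1.57 (SD, n = 2) under vehicle and 7.90% ± 0.398 under CPI-455. MT-RNR2 made up 19.8% ± 1.41 and 84.5% ± 2.03, and MT-RNR1 5.26% ± 0.207 and 7.50% ± 2.45. There were 0.316 and 0.356 rRNA fragments per protein gene fragment in the vehicle libraries and 12.1 and 11.2 in the CPI-455 libraries. The change in this ratio was 5.12 on the log2 scale, against a replicate SD of 0.12 under vehicle and 0.08 under CPI-455 (exact permutation p = 0.333, the smallest possible). A ratio taken inside a library does not depend on how the libraries were scaled to each other.

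**Figure D1:**
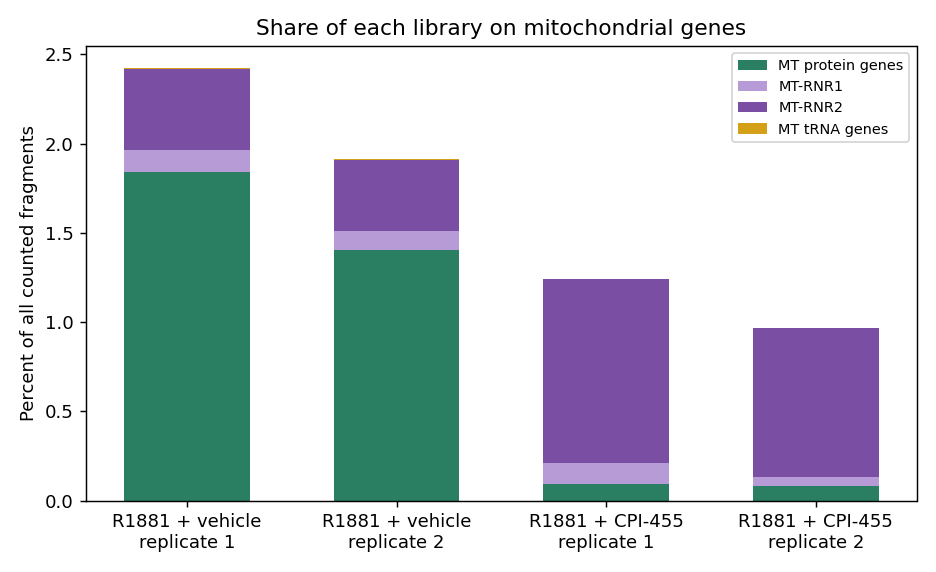
Share of all counted fragments (percent, y axis) that fell on MT genes in each of the 4 libraries (x axis), stacked by RNA class. Protein genes take 1.84% and 1.41% in the vehicle bars and under 0.1% in the CPI-455 bars, where MT-RNR2 takes most of the height.

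Of the 37 genes, 26 had enough counts to be tested, and 21 were lower with CPI-455, 1 was higher and 4 were not called. The background over all tested genes was 21.3% lower, 21.0% higher and 42.4% in either direction. Of the 21, 6 were tRNA genes with no count in either CPI-455 library, which entered the test through the vehicle libraries alone. The tRNA gene MT-TC, with 1 count in each CPI-455 library, entered in the same way. With at least 10 counts required in every library, 13 of 15 tested MT genes were lower. All 13 protein genes fell. Their median log2 fold change was 4.26 against 0.04 over all tested genes, and the range ran from 2.78 for MT-CO2 to 4.97 for MT-ND1. MT-RNR2 was the gene that rose, and MT-RNR1 was not called. The median of all genes shifted by 0.19 on the log2 scale when library totals replaced the trimmed-mean scaling, and no protein gene or MT-RNR2 changed direction.

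MT-RNR2 (1671 to 3229, plus strand) encodes the rRNA of the large mitochondrial ribosomal subunit. It had 89600 and 82317 counts under vehicle and 98459 and 44921 under CPI-455. At normalized levels this was 4232 and 3760 CPM against 11046 and 8886 CPM, so both inhibitor libraries lay above both vehicle libraries. The mean rose from 3996 ± 334 to 9966 ± 1527 CPM, 2.49-fold higher, with a log2 fold change of -1.32 (SE 0.13, edgeR FDR = 2.102e-05). MT-RNR1 (648 to 1601, plus strand) encodes the rRNA of the small subunit and lies just upstream in the same precursor. It had 24323 and 21372 counts under vehicle and 10938 and 3016 under CPI-455. The normalized levels were 1149 and 976 CPM against 1227 and 597 CPM, and the groups overlapped. Its log2 fold change was 0.22 (SE 0.26, edgeR FDR = 0.495). The CPI-455 libraries lay on either side of the vehicle libraries, and the log2 fold change ran from -0.16 without CPI-455 replicate 2 to 0.85 without CPI-455 replicate 1. It was 0.89 (edgeR FDR = 0.0123) with each library's trend of level with gene length and GC content removed, still under 2-fold.

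The rRNAs therefore moved apart from each other. MT-RNR2 had 3.68 and 3.85 fragments for each MT-RNR1 fragment with vehicle, and 9.00 and 14.9 under CPI-455. This was a 3.07-fold larger ratio on average, with no overlap between groups (exact permutation p = 0.333). Across the short MT-TL1 gene, the ratio of MT-RNR2 to MT-ND1 went from 2.63 and 2.88 under vehicle to 249 and 180 under CPI-455. The shift was 6.27 on the log2 scale. This pair sets the only MT gene called higher against the protein gene that fell most, so a large shift followed from the choice of pair.

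Complex I, which passes electrons from NADH to ubiquinone, has 7 subunits encoded on MT, and all 7 fell, with a median log2 fold change of 4.43. MT-ND1 (3307 to 4262) had 34096 and 28607 counts under vehicle and 395 and 250 under CPI-455. Its mean level fell from 1459 ± 215 to 46.9 ± 3.64 CPM, 31.2-fold (log2 fold change 4.97, SE 0.15, edgeR FDR = 2.744e-07). MT-ND2 (4470 to 5511) went from 40091 and 33345 counts to 667 and 347, with a log2 fold change of 4.57 (SE 0.15). These are the protein genes nearest downstream of the rRNA genes, and in both the lowest vehicle library stood far above the highest CPI-455 library.

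MT-ND4 (10760 to 12137) held the most counts of any protein gene with CPI-455. Its counts were 54314 and 43976 under vehicle and 2013 and 950 under CPI-455, a log2 fold change of 3.46 (SE 0.16). It was the least lowered of the complex I genes. MT-ND4L, which overlaps it by 7 bases, went from 8664 and 6320 counts to 255 and 99 (3.82, SE 0.22). MT-ND3 went from 8803 and 6675 counts to 137 and 90 (4.46, SE 0.19), and MT-ND5 from 30933 and 24620 counts to 593 and 344 (4.26, SE 0.16). Every complex I gene thus kept under 10% of its vehicle level.

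MT-ND6 (14149 to 14673), a complex I subunit, is the one protein gene on the minus strand. It had 7659 and 6143 counts under vehicle and 162 and 53 under CPI-455, a log2 fold change of 4.43 (SE 0.23), inside the range of the 12 plus-strand genes. It amounted to 2.17% and 2.16% of the plus-strand protein counts with vehicle and to 1.83% (95% interval 1.55% to 2.13%) and 1.26% (0.939% to 1.65%) under CPI-455. The groups did not overlap. The change was -0.51 on the log2 scale, with a replicate SD of 0.38 in the CPI-455 group (exact permutation p = 0.333). It was -0.24 without CPI-455 replicate 2 and -0.78 without CPI-455 replicate 1, so its size depended on 1 library. Counting did not use strand, so fragments from MT-ND6 and from precursor RNA opposite it were pooled.

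Complex III, which hands electrons to cytochrome c, has a single subunit encoded here. MT-CYB (14747 to 15887) had 36364 and 29506 counts under vehicle and 511 and 299 under CPI-455. Its log2 fold change of 4.72 (SE 0.15) was second to MT-ND1 among the protein genes, although it is the last protein gene on the plus strand. Distance from the start of the genome therefore gave no ordered trend: over the 13 protein genes the log2 fold change had a Pearson r of -0.02 and a Spearman rho of -0.04 with start position. These genes share their libraries and precursors and are not independent.

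Complex IV, cytochrome c oxidase, has 3 subunits encoded on MT, and all 3 fell, with log2 fold changes from 2.78 to 4.32. MT-CO1 (5904 to 7445), the catalytic subunit, went from 57139 and 46853 counts to 1317 and 466, a log2 fold change of 4.32 (SE 0.22). MT-CO3 (9207 to 9990) went from 30079 and 24120 counts to 634 and 337 (4.19, SE 0.15). MT-CO2 (7586 to 8269), the subunit that receives electrons from cytochrome c, went from 20933 and 15912 counts to 1286 and 526. Its log2 fold change of 2.78 (SE 0.19, edgeR FDR = 3.285e-06) was the smallest of the 13, a 6.87-fold fall. There were 0.366 and 0.340 MT-CO2 fragments per MT-CO1 fragment with vehicle and 0.976 and 1.13 under CPI-455 (exact permutation p = 0.333). These are ratios of raw counts, and MT-CO2 is the shorter gene. Per kilobase, MT-CO2 stood at 1445.5 and 1062.6 CPM against 1750.2 and 1388.0 for MT-CO1 with vehicle. Under CPI-455 it stood at 211 and 152 against 95.8 and 59.8.

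Complex V, ATP synthase, takes MT-ATP6 and MT-ATP8 from MT, both read from one shared messenger RNA. MT-ATP6 (8527 to 9207) went from 25327 and 20270 counts to 835 and 421, a log2 fold change of 3.58 (SE 0.15). MT-ATP8 (8366 to 8572) went from 6350 and 4626 counts to 222 and 93 (3.53, SE 0.21). Both fell by nearly the same amount. The ratio of MT-ATP8 to MT-ATP6 was 0.251 and 0.228 under vehicle and 0.266 and 0.221 under CPI-455, and its groups overlapped. MT-CO3, which starts at the last base of MT-ATP6, did not stay level with it. There were 1.19 MT-CO3 fragments per MT-ATP6 fragment in both vehicle libraries and 0.759 and 0.800 in the CPI-455 libraries (exact permutation p = 0.333).

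**Figure D2:**
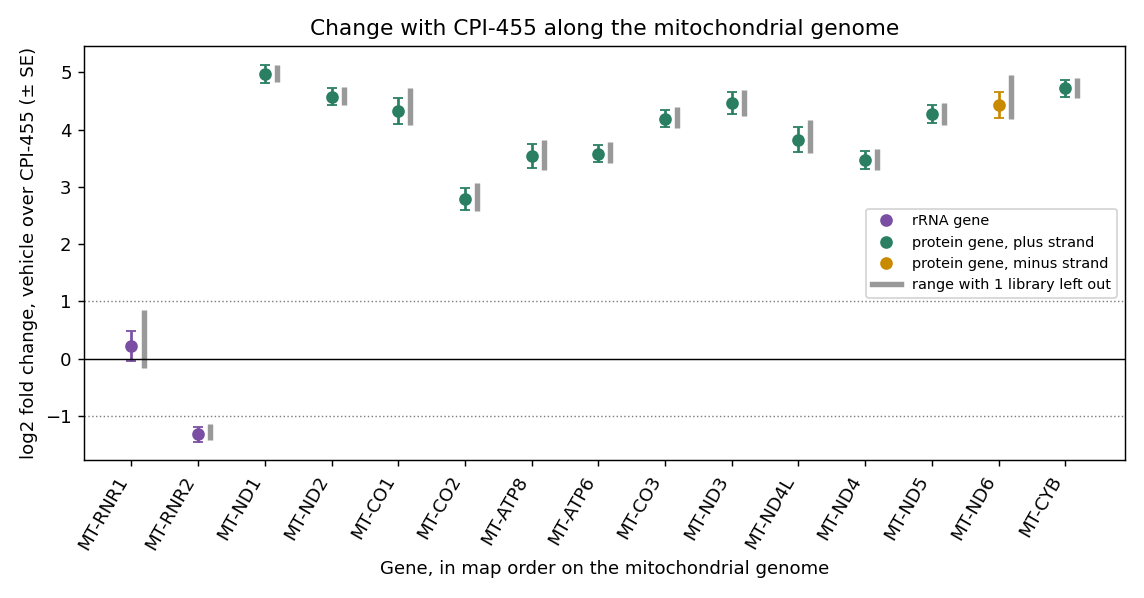
Log2 fold change, vehicle relative to CPI-455 (y axis, points with SE) for the rRNA and protein genes in map order (x axis), with grey bars for the range when 1 library was left out. All 13 protein genes lie above the dotted line at 2-fold, from 2.78 to 4.97, while MT-RNR2 lies at -1.32.

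Every protein gene was called lower in each of the 16 alternative analyses, 208 values in all, which ran from 2.57 to 6.13. Removing each library's trend of level with gene length and GC content raised the lowest protein gene value to 3.76 and the highest to 6.12. The shortest genes moved most, and the order of the genes under that setting is not the order given above.

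Per kilobase of gene, MT-RNR2 had the highest level in both groups, 2563 ± 214 CPM per kb with vehicle and 6393 ± 980 under CPI-455. In the vehicle libraries MT-ND4 (1660 ± 286), MT-ND2 (1640 ± 251), MT-CO3 (1609 ± 288), MT-CO1 (1569 ± 256), MT-ATP6 (1558 ± 281) and MT-ND1 (1526 ± 225) followed, and neighbours in this order differed by less than their SD. MT-RNR1 stood at 1114 ± 128 CPM per kb, below most protein genes, and MT-ND6 was lowest at 612 ± 109. With CPI-455, MT-RNR1 at 956 ± 467 CPM per kb came second, above all protein genes. MT-CO2 (182 ± 41.6), MT-ND4 (150 ± 19.4) and MT-ATP6 (130 ± 10.8) came next. The values of MT-CO2 and MT-ND4 overlapped across libraries, while inside each CPI-455 library MT-CO2 was higher (211 against 164, and 152 against 136). MT-ND1 had moved from rank 7 of 15 to rank 12, at 49.0 ± 3.80 CPM per kb. Lengths here are whole genes, shared bases included, which lowers the level of short overlapping genes such as MT-ATP8.

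**Figure D3:**
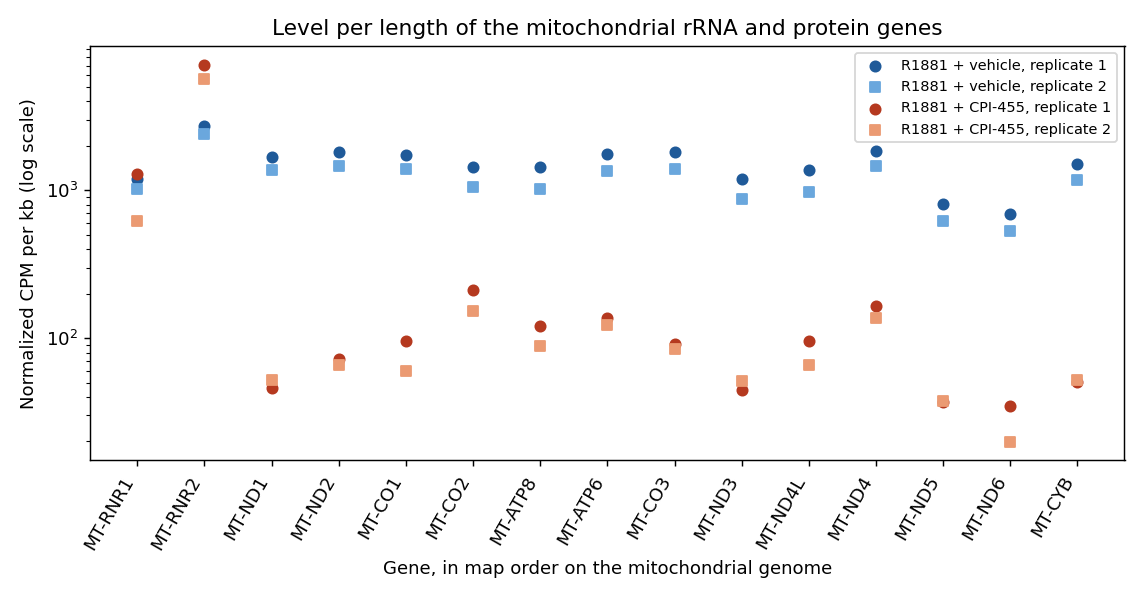
Normalized level per kilobase (CPM per kb, log axis) of the rRNA and protein genes in map order, 1 point per library. Vehicle and CPI-455 points are separated for every protein gene, lie in the opposite order for MT-RNR2, and overlap for MT-RNR1.

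The mix of messenger RNAs changed along with their sum. MT-CO2 made up 5.80% and 5.47% of protein gene counts with vehicle and 14.2% and 12.3% under CPI-455. MT-ND4 made up 15.1% in both vehicle libraries and 22.3% and 22.2% in the inhibitor libraries. MT-ATP6 went from a mean of 6.99% ± 0.0384 to 9.55% ± 0.423, and MT-ATP8 from 1.68% ± 0.120 to 2.32% ± 0.201. These genes took a larger part with no overlap between groups, and MT-ND4L overlapped.

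The other 8 protein genes took a smaller part. MT-ND1 went from 9.45% and 9.83% of protein gene counts to 4.38% and 5.85%, and MT-CYB from 10.1% in both libraries to 5.66% and 6.99%. MT-CO1, the most counted protein gene with vehicle, went from a mean of 16.0% ± 0.186 to 12.7% ± 2.61. Shares of one total are not independent, and a larger share here goes with a lower level in every case.

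**Figure D4:**
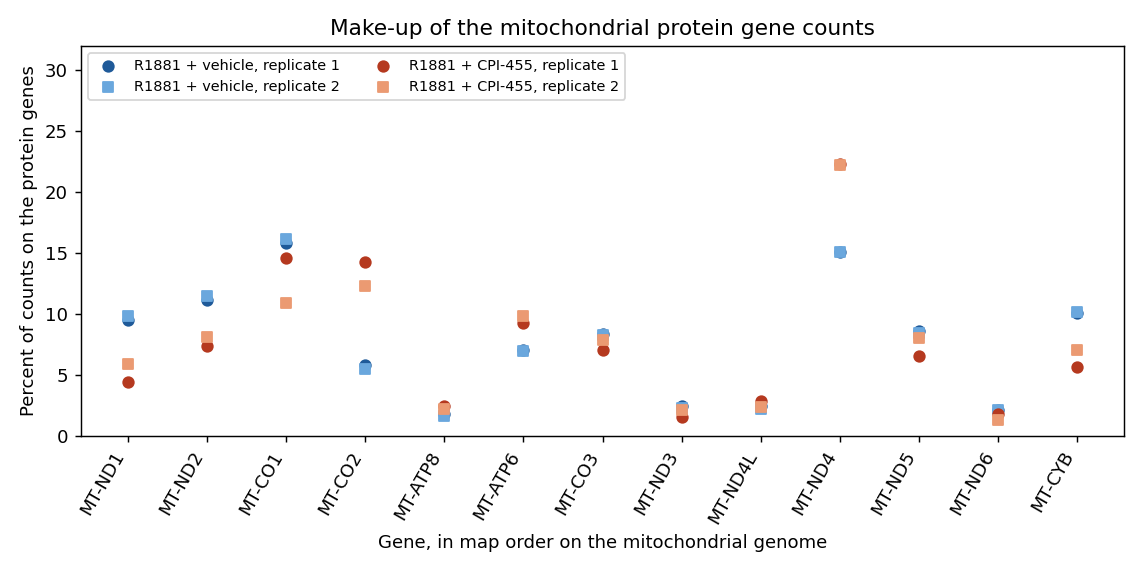
Percent of the summed protein gene counts (y axis) taken by each of the 13 protein genes in map order (x axis), 1 point per library. MT-CO2 and MT-ND4 take a larger part in both CPI-455 libraries, and MT-ND1, MT-ND2 and MT-CYB a smaller one.

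The tRNA genes are 59 to 75 bases long and few fragments were assigned to them. Their counts summed to 1389 and 938 under vehicle and to 44 and 34 under CPI-455. At normalized levels the mean sum was 54.2 ± 16.1 CPM against 5.83 ± 1.27 CPM, 9.30-fold lower. With vehicle, 1 and 2 of the 22 tRNA genes had no count, and with CPI-455 there were 15 and 18. Only 11 were tested, and 6 of those had no count with CPI-455 and so passed the filter through the vehicle libraries alone. MT-TC, with 1 count in each CPI-455 library, passed in the same way. For this reason the number called among the tested genes is given only to account for them: 8 were lower and 3 were not called. The other 11 had at most 30 counts in any library.

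MT-TM had 376 and 186 counts under vehicle and none in either CPI-455 library. Set against a floor of 3 counts over the inhibitor group (0.215 CPM), it was at least 60.8-fold lower. This bound and the later ones use the pooled vehicle level and leave out its replicate spread. MT-TL1 (leucine), between MT-RNR2 and MT-ND1, had 160 and 108 counts under vehicle and none with CPI-455, at least 29.0-fold lower. MT-TV (valine), between the rRNA genes, had 121 and 101 counts and then none, at least 24.0-fold lower. Both tRNA genes that border MT-RNR2 had no counted fragment in either CPI-455 library, but this held for 13 of the 22 tRNA genes.

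On the minus strand, MT-TY (tyrosine) had 134 and 104 counts under vehicle and none with CPI-455, at least 25.7-fold lower. MT-TC (cysteine) had 146 and 110 counts and then 1 in each inhibitor library, a ratio of 41.5 with a counting interval from 11.4 to 345. On the plus strand, MT-TK (lysine) had 64 and 33 counts and MT-TT (threonine) 31 and 19. Both had none under CPI-455, at least 10.5-fold and 5.41-fold lower. These last calls rest on few counts. MT-TK was not called without vehicle replicate 1 (edgeR FDR = 0.0559), nor MT-TT without vehicle replicate 2 (edgeR FDR = 0.0652).

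MT-TP kept counts in every library, 165 and 167 under vehicle and 13 and 8 under CPI-455. Its level fell from 7.71 ± 0.116 to 1.52 ± 0.0878 CPM, 5.09-fold (log2 fold change 2.35, SE 0.37, edgeR FDR = 4.863e-04). MT-TA (alanine) had 25 and 6 counts under vehicle and 0 and 17 under CPI-455. MT-TD (aspartate) had 33 and 23 counts against 14 and 0, and MT-TG (glycine) 21 and 16 against 0 and 8. In each of these uncalled genes, one CPI-455 library had no count, and the call changed with the library left out. MT-TA was called higher without CPI-455 replicate 1 (edgeR FDR = 0.00186) and lower without CPI-455 replicate 2 (edgeR FDR = 0.0128). MT-TD was called lower without CPI-455 replicate 1 (edgeR FDR = 0.00580), and MT-TG without CPI-455 replicate 2 (edgeR FDR = 0.00618). With all 4 libraries and the trend with gene length and GC content removed, MT-TD (2.57, edgeR FDR = 0.0337) and MT-TG (2.72, edgeR FDR = 0.0408) were also called lower, which brought the MT genes called lower to 23. MT-TN (asparagine) had no count in any library, which allows up to 3 counts, or 0.593 CPM, in the shallowest one.

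The remaining 10 tRNA genes were not tested. MT-TS1 (serine) had 30 and 11 counts under vehicle and none with CPI-455, at least 4.43-fold lower. MT-TE (glutamate) had 17 and 14 against 3 and 0. The other 8 ranged from 0 to 19 counts. The normalized levels overlapped between groups for MT-TR (arginine; 2 and 4 counts against 5 and 0), MT-TH (histidine; 8 and 2 against 4 and 0), MT-TF (phenylalanine; 19 and 8 against 4 and 0) and MT-TI (isoleucine; 3 and 0 against none).

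Summed over all 22 genes, the tRNA counts amounted to 0.385% (95% interval 0.365% to 0.406%) and 0.322% (0.302% to 0.344%) of protein gene counts with vehicle and 0.487% (0.354% to 0.655%) and 0.795% (0.550% to 1.11%) under CPI-455. The group means differed by 0.82 on the log2 scale with SDs of 0.18 and 0.50 (exact permutation p = 0.333), and in CPI-455 replicate 2 MT-TA alone gave 17 of the 34 tRNA counts. The sum does not stand for each gene. MT-TM went from 376 and 186 counts to none, and MT-TP from 165 and 167 to 13 and 8. The ratio of minus-strand to plus-strand tRNA counts was 0.610 and 0.814 under vehicle and 0.630 and 3.25 under CPI-455, and its groups overlapped. Strand here is that of the annotated gene. Since counting did not use strand, fragments from RNA opposite a tRNA gene were pooled with its own.

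**Figure D5:**
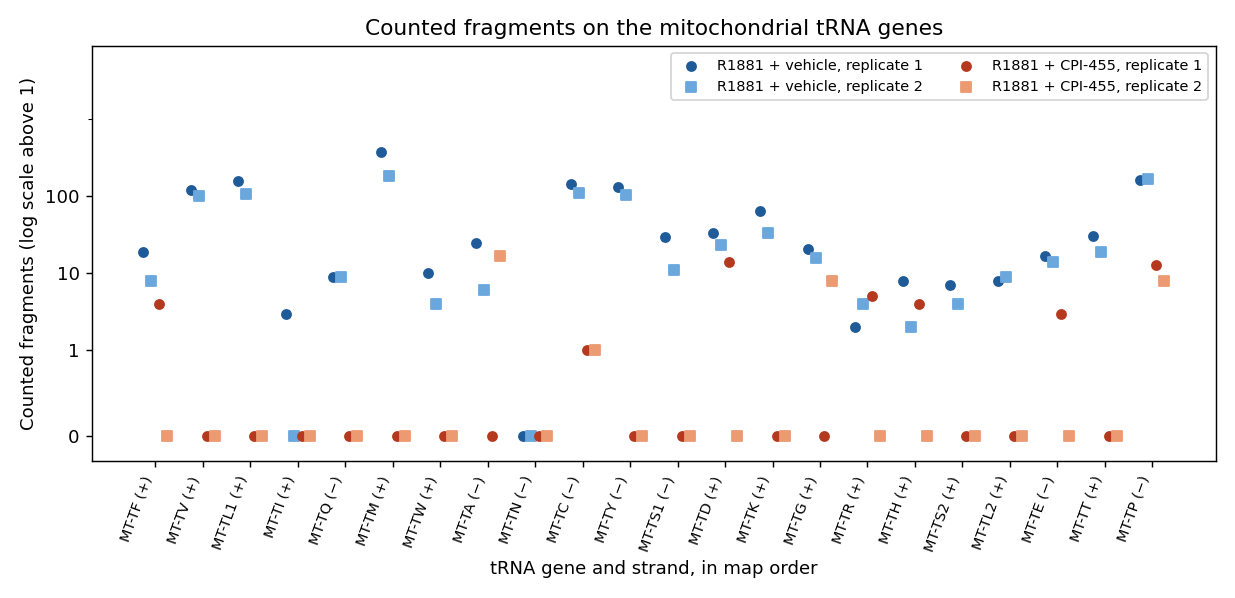
Counted fragments (y axis, log scale above 1) on the 22 tRNA genes in map order, with the strand in brackets, 1 point per library and not adjusted for depth. Most CPI-455 points lie at 0, and MT-TP is the one gene with more than 1 count in both CPI-455 libraries.

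Nuclear chromosomes carry old copies of mitochondrial genes, and fragments that align equally well to several places were not counted, so such copies can take fragments from MT genes or remove them from the counts. Of 391 nuclear copies of protein genes found by symbol, 74 had a count and 5 were tested. Of these, 3 were called lower with CPI-455, against 21.3% of all tested genes, and the others were not called. With so few tested, the number is given only to account for them, and MTND2P28 passed the filter through the vehicle libraries. The 3 were MTATP6P1 (2542 and 1825 counts against 79 and 23), MTND2P28 (1630 and 1280 against 43 and 0) and MTCO1P12 (160 and 130 against 9 and 10), all on chromosome 1. The log2 fold changes were 3.84, 4.52 and 2.26. The summed level of the nuclear copies was between 154 and 212 CPM under vehicle and between 14.4 and 24.1 CPM under CPI-455. It moved with the MT protein genes, whose sum was 15165 ± 2650 and 929 ± 118 CPM. Near-identical copies make each of these counts uncertain, and their part in the MT values was not tested.

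Nuclear genes that serve mitochondrial transcription, DNA upkeep, RNA processing and decay were called in both directions, at shares near those of all tested genes. All 35 on the list were tested. Of these, 6 (17.1%, against 21.3% of all tested genes) were lower and 8 (22.9%, against 21.0%) were higher with CPI-455, and the median log2 fold change was 0.11 against 0.04 over all tested genes. Among the lower genes were TWNK, the mitochondrial DNA helicase (2.82, SE 0.19), and TFAM, which packages mitochondrial DNA and activates its transcription (1.20, SE 0.13). FASTKD3 and FASTKD5, RNA-binding proteins of mitochondria, were also lower (1.66, SE 0.23, and 1.47, SE 0.17). Among the higher genes were SLIRP (-2.41, SE 0.15), POLG2, an accessory subunit of the mitochondrial DNA polymerase (-1.68, SE 0.17), FASTKD1 (-1.13, SE 0.17) and FASTK (-1.13, SE 0.16).

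LRPPRC and SLIRP, partners in one complex, were thus called in opposite directions, LRPPRC having a log2 fold change of 1.08 (SE 0.12, edgeR FDR = 5.869e-05). LRPPRC went from 6451 and 7961 counts under vehicle to 1425 and 793 under CPI-455, and SLIRP from 406 and 380 to 793 and 538. POLRMT, the mitochondrial RNA polymerase (-0.49, SE 0.12, edgeR FDR = 0.00513), stayed under 2-fold. The tail-adding enzyme MTPAP (-0.28, SE 0.23, edgeR FDR = 0.311) and the tRNA-end nuclease ELAC2 (-0.29, SE 0.13, edgeR FDR = 0.0666) were not called. LRPPRC, POLRMT, MTPAP and ELAC2 were named after their values were seen.

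RNAs whose capture depends on how RNA is selected also moved with the group. MALAT1, a nuclear-retained long RNA without an ordinary poly(A) tail, took 0.114% and 0.0884% of counts with vehicle and 4.95% and 6.49% under CPI-455 (log2 fold change -6.01, SE 0.19). NEAT1, another nuclear RNA, was higher too (-1.62, SE 0.19). Of 15 tested members of the spliceosomal U RNA families, mostly pseudogene copies with few counts, 13 were higher and 1 lower, against 21.0% and 21.3% of all tested genes. Several of them had almost no vehicle counts and passed the filter through the CPI-455 libraries, so the number called supports nothing. RNU6-611P, which also passed the filter through the CPI-455 libraries, had 12 and 6 counts against 55 and 35 (-3.93, SE 0.56). RN7SL2, a signal recognition particle RNA, was not called (0.57, SE 0.50, edgeR FDR = 0.351). The RNA selection used for these libraries was not given in the sources used here. The part that RNA selection or depth had in the mitochondrial values was not tested.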

How the data were processed

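Paired-end RNA-seq of 4 LNCaP libraries was used, and samples were grouped by their labels. The authors trimmed reads with Trim Galore, aligned them with STAR to GRCh38 and deposited raw counts of fragments per gene, made with featureCounts 1.5.0-p1 on Ensembl release 83 without regard to strand. Fragments aligning to several places or overlapping several genes were left out, which affects short, touching and duplicated genes. Symbols were found for 56558 of 60675 gene identifiers. Counts were tested here with edgeR 4.0.16 in R 4.3.3 (trimmed-mean scaling, filterByExpr with a minimum of 10 counts, quasi-likelihood test) on all 17600 genes that passed, with Benjamini-Hochberg FDR below 0.05 and at least 2-fold. SE was the log2 fold change divided by the square root of F. Ratios and shares used exact two-sided permutation tests, which with 2 libraries a group cannot go below 0.333. Total counts ran from 5401588 to 20690819 per library. Sequences came from the GRCh38 reference, and all 37 MT genes have the same coordinates in GENCODE 44. Scripts were tested on simulated data. All MT genes were described, and of nuclear lists up to 4 called genes per direction, by size of change, whose mean log2 CPM reached 1, apart from genes said to be chosen later. The members and gene lists were chosen with earlier results of these data known. Alternatives were other scalings, filters and tests (DESeq2 1.42.0, a likelihood-ratio test, glmTreat), a length and GC trend fitted with mgcv 1.9.3, a replicate block and leaving out each library.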

Additional observations from a re-analysis of the deposited data

How the results depend on the processing

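The inhibitor libraries had the fewest counts, so tRNA genes near 0 were not measurable there. With at least 10 counts required in every library, 13 MT genes were called lower, since 15 could be tested and no tRNA gene was left for a median. The protein gene median was 5.10 with the length and GC trend removed, with or without the block. The tRNA median, which depends on how a count of 0 is treated, was 7.06; it was 3.39 with genes at 0 set at their bound, 5.30 with no filter, 5.39 by DESeq2 and 8.25 (8.27 with the block) with the trend removed. With 1 library left out at a time, 19 to 24 MT genes were lower, 1 to 2 were higher (the added gene was MT-TA, without CPI-455 replicate 1), the share fold ran from 1.73 to 2.24, the protein median from 4.09 to 4.47 and the tRNA median from 6.11 to 7.10. Values that changed sign when 1 library was left out were those of MT-RNR1 (-0.16 to 0.85), MT-TA (-2.51 to 6.67), MT-TD (-0.23 to 7.40), MT-TG (-0.86 to 6.92), the log2 ratio of MT-ATP8 to MT-ATP6 (-0.11 to 0.15) and that of minus-strand to plus-strand tRNA counts (-0.16 to 2.21). MT-TA was also 1.73 with the trend removed and 2.22 with the block added. With the trend removed, 23 MT genes were lower, with or without the block; with it, MT-RNR1 was 0.99, MT-TD 3.07 and MT-TG 3.11. The cause of these changes was not tested, beyond the fewer samples or genes that an alternative leaves.

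The labels give both groups replicate numbers 1 and 2, but nothing ties equal numbers to a shared culture, and the replicate differences of the groups correlated at 0.0496 across 17600 genes. With the replicate block, 21 MT genes were lower, 1 was higher and the protein median was 4.26, while over all genes the calls went from 3756 to 3745 lower and from 3698 to 3422 higher.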

Other observations

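Values on base composition belong to no comparison above. Adenine made up 35.09% of MT-RNR2 and 33.02% of MT-RNR1, and from 19.62% (MT-ND6) to 38.65% (MT-ATP8) of the 13 protein genes, with a median of 28.65%. The longest run of adenines was 7 bases in MT-RNR2 and at most 8 in a protein gene. Across the 13 protein genes, which share libraries and precursors, the log2 fold change had a Pearson r of -0.30 with adenine content, 0.24 with length and 0.16 with GC content. Levels per kilobase in the vehicle and CPI-455 libraries had a Pearson r of 0.66 and a Spearman rho of 0.55 over the same 13 genes.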
